A study of Mus musculus with 2 samples.

Results

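Cd209a type 2 conventional dendritic cells (cDC2) of B16-F10 melanoma were described from single-cell RNA-seq of tumor immune cells. A cell was counted as a Cd209a cDC2 when it held at least 2 UMIs (unique molecular identifiers, each standing for 1 captured transcript) of Cd209a, at least 1 UMI of Flt3, Zbtb46 and Kmo together, at most 1 of Xcr1 and Clec9a, at most 2 of Ccr7 and Fscn1, and at most 5 of C1qa, C1qb and C1qc. The rule found 287 of 12078 cells, 101 of 6284 in the library labelled Irg1+/+ and 186 of 5794 in the library labelled Irg1-/-. Because these UMIs chose the cells, the levels of the rule genes are a description of the choice.

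The study asked how loss of Irg1 in the host changes the immune cells of a tumor. Irg1, listed in the files as Acod1, encodes the mitochondrial enzyme that makes itaconate. B16-F10, a mouse melanoma line, was injected under the skin of C57BL/6J mice at 200000 cells per mouse. The mice were either Irg1+/+ or Irg1-/-, with the allele on the C57BL/6J background, and by the methods for this tumor model were female and aged 8 to 10 weeks. The labels name no further treatment. On day 10, 100 mm3 pieces of the tumors of 3 mice per genotype were pooled, 6000 Cd45+ cells were sorted, and 1 BD Rhapsody library (a microwell system) was made from each pool. The tumor cells were the same line in both hosts, and the allele is labelled for the mouse, not for dendritic cells alone. With 1 library per genotype there was no replicate, so no test between the genotypes was possible, every interval below covers counting error only, and the genotype cannot be told apart from the pool, the tumor pieces or the library preparation.

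The Irg1+/+ library held 43617546 UMIs in 6408 cells and the Irg1-/- library 36432067 in 5896. After 124 and 102 cells with 10% or more mitochondrial UMIs were left out, the median cell had 4528 and 4594.5 UMIs. The members were deeper, with medians of 5573 and 6088 UMIs and of 2332 and 2400 genes. The depth of a single member ranged between 2414 and 11466 UMIs for Irg1+/+ and between 641 and 21343 UMIs for Irg1-/-. Levels below are UMIs summed over the members of a library and scaled to 1000000 UMIs (CPM), from 594001 UMIs in Irg1+/+ and 1193170 in Irg1-/-. The libraries had 36 cell barcodes in common, and 0 of the Irg1+/+ and 1 of the Irg1-/- members carried a barcode that was also in the other library.

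Conventional dendritic cells take up antigen in tissue and present it to T cells. Type 1 cells (cDC1) bear Xcr1 and Clec9a and present to CD8 T cells, whereas cDC2 depend on Irf4 and Klf4, carry lectins such as Cd209a and Clec10a, and mainly present on MHC class II to CD4 T cells. On maturation, dendritic cells of either type turn on Ccr7, the receptor that brings them to the lymph node, and Fscn1, an actin bundler. The Ccr7 limit of the rule keeps such cells out of the members.

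Acod1 itself had 6 UMIs in 6 Irg1+/+ members (10.1 CPM) and 37 UMIs in 26 Irg1-/- members (31.0 CPM). The T, NK and B cells, defined by at least 3 UMIs of 7 lymphocyte genes, at most 5 C1q UMIs and none of Cd209a, Flt3, Zbtb46, Kmo, Xcr1 or Clec9a, held more, 58.8 and 36.3 CPM, so the level in members was at or below the background of cells that should lack this transcript. Over all kept cells Acod1 stood at 87.8 and 108 CPM. In cDC1 it stood at 19.4 and 19.9 CPM, in mature dendritic cells at 16.6 and 17.8 CPM and in macrophages at 112 and 95.9 CPM. Over all kept cells and in the members, the Irg1-/- level of Acod1 was not below the Irg1+/+ level, whereas in T, NK and B cells it was lower (-0.69, -1.07 to -0.33). Which exons the allele lacks is not given in the sources used here, and a UMI read outside the deleted part checks nothing, so the library labels are used as given and every direction below is between the labelled libraries.

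The members made up 1.61% (95% exact binomial interval 1.31 to 1.95) of the kept Irg1+/+ cells and 3.21% (2.77 to 3.70) of the kept Irg1-/- cells. The share was 2.00 times as high (1.57 to 2.54), a difference of 1.60 percentage points. For comparison, cells with at least 2 UMIs of Xcr1 and Clec9a (cDC1) numbered 118 and 107, a ratio of shares of 0.98. Cells with at least 5 UMIs of Ccr7 and Fscn1 (mature dendritic cells) numbered 259 and 223, a ratio of 0.93. Macrophages with at least 20 C1q and 2 Mgl2 UMIs numbered 140 and 89, a ratio of 0.69. Both dendritic rules also asked for at least 1 UMI of Flt3, Zbtb46 and Kmo, and at most 5 C1q UMIs and 1 Cd209a UMI. Cells with 2 or more Cd209a UMIs were therefore left out of both. The cDC1 further held at most 2 UMIs of Ccr7 and Fscn1, and mature cells at most 1 of Xcr1 and Clec9a. Macrophages met both of these last limits. Taken as a share of the dendritic cells that the 3 dendritic rules found, the members were 21.1% (17.6 to 25.1) of 478 in Irg1+/+ and 36.0% (31.9 to 40.4) of 516 in Irg1-/-.

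Cells near the limits of the rule were counted in both libraries. The members with exactly 2, 3 and 4 Cd209a UMIs numbered 17, 7 and 5 in Irg1+/+ and 15, 23 and 10 in Irg1-/-, while 40 and 62 cells just outside met every other condition with 1 Cd209a UMI. The median member had 8 Cd209a UMIs in either library, and the highest had 47 in Irg1+/+ and 63 in Irg1-/-. At the C1q limit, 23 and 51 members held 4 or 5 UMIs and 23 and 24 cells outside held 6 or 7. At the Ccr7 and Fscn1 limit, 7 and 35 members held 2 UMIs and 4 and 7 cells outside held 3. Kmo, which encodes kynurenine 3-monooxygenase of tryptophan breakdown, alone carried 36 and 62 members through the Flt3, Zbtb46 and Kmo condition.

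Single UMIs of Cd209a were also found in cells that should lack it. Among kept cells with at least 3 lymphocyte UMIs and at most 5 C1q UMIs, whatever their dendritic genes, 7.31% of 1327 in Irg1+/+ and 8.87% of 1049 in Irg1-/- held a Cd209a UMI, and 1.96% and 2.00% held 2 or more. The whole rule was met by 12 and 11 of these cells (0.904% and 1.05%). Among the members, 22 (21.8%) in Irg1+/+ and 25 (13.4%) in Irg1-/- held at least 2 lymphocyte UMIs, which doublets and free RNA could both give. The part of either in the results was not tested, but values without these members are given in the closing section.

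The label was described with 4 of its markers that the rule did not use. They were chosen with earlier results of these data known, so their levels are not an independent check. Clec10a, a lectin for galactose and N-acetylgalactosamine, stood at 525 CPM in 72 of the Irg1+/+ members and at 550 CPM in 136 of the Irg1-/- members. Its level in cDC1 was 86.5 and 72.7 CPM, in mature dendritic cells 36.5 and 22.5 CPM, in Mgl2 macrophages 96.9 and 123 CPM, and in T, NK and B cells 18.6 and 15.4 CPM. Clec10a was thus higher in the members than in each other population of both libraries.

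Mgl2, its neighbor on chromosome 11 and a lectin of the same kind, stood at 401 CPM in 45 Irg1+/+ members and 542 CPM in 73 Irg1-/- members. Its 238 and 647 UMIs were unevenly spread, with 34 and 116 in a single cell. The macrophage population, which was chosen on Mgl2, had 751 and 622 CPM, a level that its own rule raised. In cDC1 Mgl2 stood at 128 and 172 CPM. Ffar2, a receptor for short-chain fatty acids, stood at 75.8 CPM in 19 Irg1+/+ members and 145 CPM in 62 Irg1-/- members, against at most 28.4 CPM in the 4 other populations. Timd4, a phosphatidylserine receptor for dead cells, was found in only 8 Irg1+/+ members (79.1 CPM) but 54 Irg1-/- members (203 CPM). Its level was 36.1 and 196 CPM in cDC1 and 41.8 and 138 CPM in mature dendritic cells, so Timd4 did not set the Irg1-/- members apart from cDC1.

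All 4 of these markers were missing from 19 Irg1+/+ and 27 Irg1-/- members, and 1 and 17 members held all 4. With the members chosen first and each then thinned to 2000 UMIs, which kept 101 and 179 of them, Clec10a was seen in 56.4% and 46.9% of members against 4.04% and 2.57% of T, NK and B cells. Before thinning the shares in members were 71.3% and 73.1%. Mgl2 was seen in 28.7% and 25.7% of thinned members against 7.03% and 6.68% of the lymphocytes. Thinned cDC1 held Mgl2 in 14.4% (8.30 to 22.7) and 17.1% (10.5 to 25.7) of cells. These intervals overlapped those of the members (20.1 to 38.6 and 19.5 to 32.8). In thinned macrophages, chosen on Mgl2, it was seen in 61.9% and 59.6%. Of the transcription factors of cDC2, Irf4 stood at 133 and 111 CPM and Klf4 at 285 and 293 CPM, with no call between the libraries. In thinned Irg1+/+ cells Irf4 was seen in 18.8% (11.7 to 27.8) of members and 12.5% (10.2 to 15.05) of lymphocytes, with overlapping intervals. In Irg1-/- they did not overlap (19.6% and 9.08%). Thinned Sirpa was seen in 29.7% and 33.5% of members but 58.3% and 46.1% of macrophages. Itgam was seen in 48.5% and 58.1% of members but 65.5% and 73.03% of macrophages. Irf4, Sirpa and Itgam were each less frequent in thinned cDC1 and mature dendritic cells than in members. Esam, a marker of a Notch-dependent cDC2 subset, had no UMI in any member, and Clec4a4 had 0 and 2 UMIs.

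**Figure D1:**
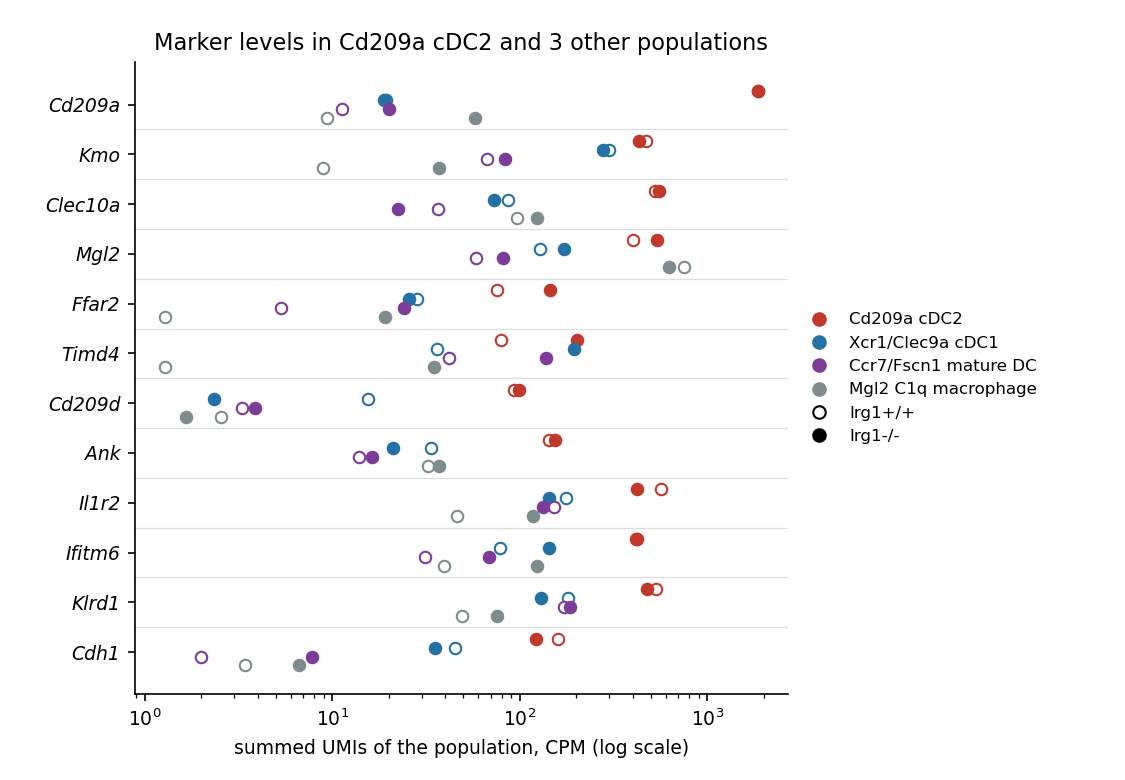
Level in CPM (log axis) of the cDC2 markers and of genes with large folds over the other populations, in the Cd209a cDC2 and in cDC1, mature dendritic cells and Mgl2 C1q macrophages, with open points for the Irg1+/+ and filled points for the Irg1-/- library and 1 color per population. Cd209a and Kmo were used by the rule, and Clec10a stood at 525 and 550 CPM in the members against at most 123 CPM in the other populations drawn.

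Genes at least 4-fold higher in members than in cDC1, mature dendritic cells and Mgl2 macrophages, in both libraries, were few. Of 3302 genes with at least 100 UMIs in members, 3 passed (0.0909%) besides Cd209a, whose own separation came from the rule. With 1 Cd209a UMI enough for the rule, Cd209d, Cd209e and Ngfr passed, and with cells thinned to 2000 UMIs none of the 3 below did. Cd209d, another lectin of the DC-SIGN family, stood at 92.6 and 98.9 CPM in members. In the other 3 populations its level was at most 15.5 CPM. The locus lies beside Cd209a on chromosome 8 (Cd209a at 3743397 to 3748984 and Cd209d at 3871824 to 3878555, GRCm38), and how reads were shared between these related genes was not tested. Clec10a (chromosome 11, 70156197 to 70170834) was the second. Ank, a transporter of pyrophosphate, was the third, with 143 and 155 CPM in members and at most 37.2 CPM in the other 3.

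All other tested genes fell short of 4-fold in at least 1 comparison. Some of those with the largest folds follow, not in order. Il1r2, the decoy receptor for interleukin 1, stood at 569 and 423 CPM in members, and the nearest population had 176 CPM in Irg1+/+ and 143 CPM in Irg1-/-. Ifitm6, of the interferon-induced transmembrane family, stood at 424 and 417 CPM, against at most 78.8 CPM in Irg1+/+ and 143 CPM in Irg1-/-. Klrd1 (CD94), at 532 and 477 CPM, was also a gene of the lymphocytes, where it stood at 433 and 582 CPM. Cdh1, which encodes E-cadherin, stood at 160 and 122 CPM, with cDC1 at 45.2 and 35.2 CPM. These genes describe the chosen cells, and no test of the members against the rest was made.

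The members varied widely in antigen presentation. The summed level of H2-Aa, H2-Ab1, H2-Eb1 and Cd74, the MHC class II chains and their invariant chain, spanned 2536 to 75729 CPM per cell among the Irg1+/+ members, with a median of 42204 CPM. In the Irg1-/- library the lowest, median and highest members had 2603, 43460 and 81998 CPM. The distributions overlapped over nearly their whole range. In each library a tail lay under 20000 CPM, a limit set after seeing the values: 18 of 101 members (17.8%, 10.9 to 26.7) and 33 of 186 (17.7%, 12.5 to 24.0). Its median depth was 6002 UMIs against 5573 for the other members in Irg1+/+, and 5384 against 6160 in Irg1-/-.

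The members low in MHC class II carried other genes. Siglech, a sialic acid-binding lectin of plasmacytoid dendritic cells, stood at 439 CPM in the low members and 2.06 CPM in the others of Irg1+/+, and at 359 and 1.00 CPM in Irg1-/-. It was held by 5 and 10 of the low cells and by 1 of the others in each library. Tcf4, the transcription factor on which plasmacytoid cells depend, stood at 531 against 256 CPM in Irg1+/+ and 764 against 164 CPM in Irg1-/-. Runx2, which serves their exit from bone marrow, stood at 375 against 101 and 461 against 61.1 CPM.

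Several but not all monocyte genes were also higher there. Ly6c2 stood at 2462 CPM in low against 685 CPM in other Irg1+/+ members, and at 2680 against 1190 CPM in Irg1-/-. Vcan (versican) stood at 220 against 20.6 and 226 against 32.1 CPM. Of the same monocyte list, Ms4a4c was lower in the low members, at 394 against 970 and 605 against 1042 CPM, and Ifitm6 stood at 439 against 421 and 564 against 389 CPM. Summed over the 8 plasmacytoid markers, the low members had 2105 CPM against 592 in Irg1+/+ and 2475 against 523 in Irg1-/-. The median member differed less, 770 against 403 and 845 against 428 CPM. Ighm, the IgM heavy chain, was also higher in the low members, at 275 against 109 and 348 against 98.2 CPM. The NK cell markers summed to 1318 against 322 CPM in Irg1+/+, with 59 Gzma UMIs in 3 low cells, and to 405 against 391.8 CPM in Irg1-/-. The 10 monocyte markers summed to 8694 against 4576 and 10116 against 5276 CPM, whereas the 12 macrophage markers were close, 1693 against 1921 and 2075 against 2021 CPM.

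The cDC2 genes were split between the ranges. Summed over the cDC2 markers outside the rule, the low members had 4658 CPM against 4157 in Irg1+/+ and 4053 against 4810 in Irg1-/-. Irf4 (247 against 107 CPM), Klf4 (540 against 227 CPM) and Ccr2 (1236 against 840 CPM) were higher in the low Irg1+/+ members, and in Irg1-/- they stood at 118 against 109, 369 against 279 and 1440 against 1144 CPM. Cd7, of the same list, stood at 1080 against 231 and 671 against 262 CPM. The 4 markers of the label outside the rule lay on the other side. In Irg1+/+, Clec10a stood at 265 CPM in low and 584 CPM in other members and Mgl2 at 64.1 and 477 CPM, and no low member held a UMI of Ffar2 or Timd4. In the Irg1-/- library, Clec10a stood at 277 CPM in low and 603 CPM in other members, Mgl2 at 41.0 and 640 CPM, Ffar2 at 20.5 and 169 CPM, and Timd4 at 15.4 and 240 CPM. Cxcl9, a chemokine for Cxcr3 T cells, stood at 128 against 1564 CPM in Irg1+/+ and 190 against 1453 CPM in Irg1-/-. Il1b stood at 769 against 1950 and 861 against 2240 CPM. The rule therefore admitted an MHC class II-low range that bore genes of plasmacytoid cells and monocytes, and 8 members of each library lay within 5000 CPM of the limit.

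**Figure D2:**
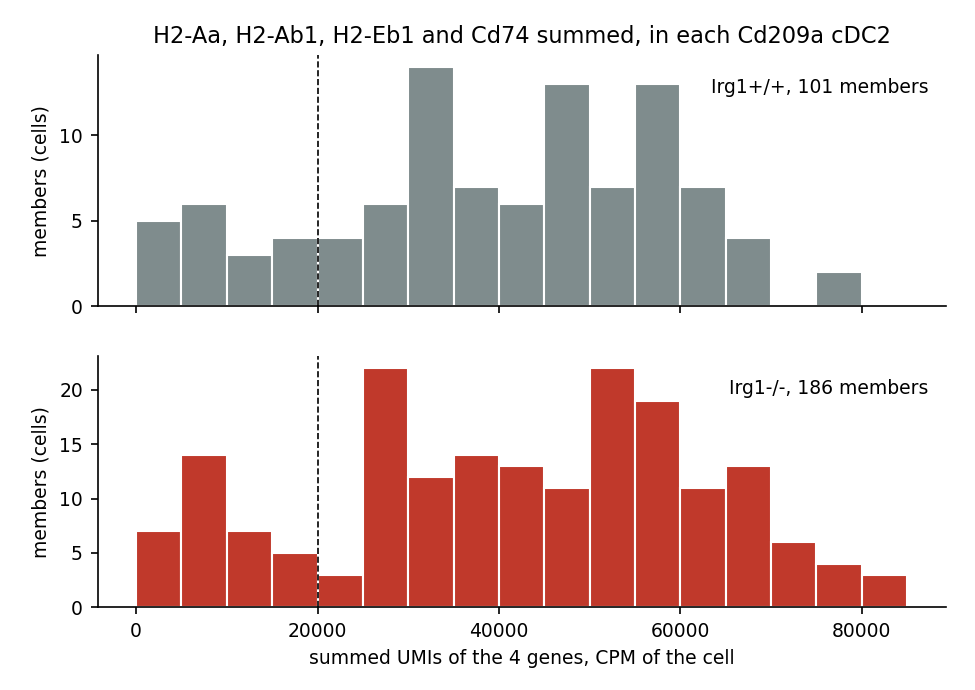
Summed CPM of H2-Aa, H2-Ab1, H2-Eb1 and Cd74 in each Cd209a cDC2, 101 in the Irg1+/+ and 186 in the Irg1-/- library, as histograms of the number of members (vertical axis) by level (horizontal axis), with a dashed line at 20000 CPM. The medians were 42204 and 43460 CPM, and 18 and 33 members lay under the limit.

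Correlations over members described the same order. H2-Aa correlated with Cd74 at Pearson's r = 0.91 over 101 Irg1+/+ cells and 0.89 over 186 Irg1-/- cells, and with Ly6c2 at -0.45 and -0.42. The genes most correlated with Cd209a in Irg1+/+ were H2-Ab1 (0.37), Rpn1 (0.35), Eps8 (0.35), H2-Aa (0.34), Tmem176b (0.34), Arih1 (0.33), Cd74 (0.32), H2-Eb1 (0.31), Hk2 (0.31) and Pitpna (0.31). In Irg1-/- the 4 MHC class II genes among them stood at 0.28, 0.24, 0.27 and 0.26, and the other 6 between -0.11 and 0.07. Cd209a followed Clec10a at 0.20 and 0.26 and Mgl2 at 0.07 and -0.04. The points share a library and its depth, the counts are sparse, and values this low are given as a description.

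Between the libraries, 7426 genes with at least 20 UMIs in members were compared as the log2 ratio of Irg1-/- over Irg1+/+ CPM, with 0.5 UMIs added. A gene was called when the ratio was at least 1.5-fold and its exact interval did not include 0. In the Irg1-/- library 222 genes (2.99%) were called higher and 354 (4.77%) lower, with a median ratio of -0.04. Of all called genes 38.5% were higher. That split depended on the scaling, since TMM factors, which added 0.07 to every ratio, gave 301 higher and 266 lower (53.1% higher), and DESeq2 size factors, which added 0.05, gave 284 and 286 (49.8%). A gene list is read below against 2.99% and 4.77%.

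Cd209a stood at 1862 and 1856 CPM, a ratio of -0.01 (-0.11 to 0.10), and Kmo at 470 and 432 CPM. Of the 10 rule genes with enough UMIs, 2 that the rule limits from above were called lower, Clec9a at -1.12 (-1.99 to -0.26) and C1qc at -0.65 (-1.05 to -0.24). Mgl2 stood at 0.43 (0.22 to 0.66) and was not called. Of 17 cDC2 markers outside the rule with enough UMIs, 2 were called higher in Irg1-/- and 3 lower. Ffar2 was higher by 0.92 on the log2 scale (0.46 to 1.44) and Timd4 by 1.35 (0.90 to 1.84). Thinned to 2000 UMIs, Timd4 was seen in 6.93% (2.83 to 13.8) of Irg1+/+ and 18.4% (13.04 to 24.9) of Irg1-/- members. Ffar2 was also higher in mature dendritic cells (2.11, 1.03 to 3.51), macrophages (3.71, 2.17 to 6.28) and T, NK and B cells (1.58, 0.27 to 3.15), and stood at -0.14 (-1.06 to 0.78) in cDC1. Timd4 was higher in each other population too, by 2.42 in cDC1, 1.72 in mature dendritic cells, 4.56 (3.12 to 7.10) in macrophages and 3.25 (1.72 to 5.81) in T, NK and B cells. In the lymphocytes, which should lack it, its level was 0.87 and 9.47 CPM.

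The 3 lower markers rested on few cells. Plet1, a membrane protein of migratory dendritic cells of the gut, stood at 85.9 CPM in 8 Irg1+/+ members and 16.8 CPM in 11 Irg1-/- members, a ratio of -2.34 (-3.18 to -1.59). Ccl17, a chemokine for Ccr4 T cells, stood at 64.0 CPM in 11 and 37.7 CPM in 13 members, and Cd2 at 74.1 and 46.1 CPM. With at most 2 C1q UMIs in the rule, Ccl17 turned to 0.66. Cd2 turned higher with at most 1 lymphocyte UMI, and both genes did with thinned cells.

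By count and under the main rule, genes of the type I interferon response were the list with the most higher calls. The dissociation stress list had more with at most 2 C1q UMIs (12 against 6) and with thinned cells (8 against 4). The interferon pathway starts at the receptor Ifnar. Its kinases activate a complex with Stat2 and Irf9 that binds interferon-response elements before genes for antiviral proteins. Of 26 tested members of the list, 9 (against the background of 2.99%) were higher and 0 lower, with a median of 0.36 beside -0.04 for all genes. The 26 genes together stood at 3758 CPM in Irg1+/+ and 5226 CPM in Irg1-/-. Per member the sum ran from 337 through a median of 2712 to 29599 CPM in Irg1+/+, and from 312 through 4224 to 28613 CPM in Irg1-/-. The ranges overlapped, while the 10th percentile stood at 1434 and 1916 CPM and the 90th at 6365 and 9425 CPM.

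Among the factors of the pathway, Stat2 stood at 167 CPM in 48 Irg1+/+ and 312 CPM in 132 Irg1-/- members, a ratio of 0.90 (0.58 to 1.24). Irf7, the factor that amplifies interferon production, stood at 131 and 272 CPM, a ratio of 1.04 (0.69 to 1.42). Among the effectors, the ubiquitin-like Isg15 stood at 209 and 385 CPM (0.88, 0.59 to 1.18), Ifi27l2a at 465 and 846 CPM (0.86, 0.67 to 1.06), and Ifi44 at 23.6 CPM in 8 and 86.3 CPM in 47 members (1.83, 1.06 to 2.79). Oasl2, Xaf1, Rtp4 and Isg20 were called at 0.66, 0.72, 0.72 and 0.77. The RNA-binding Ifit1 stood at -0.38 (-0.78 to 0.04) and the antiviral enzyme Rsad2 at 0.14 (-0.21 to 0.50), both not called.

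The number of interferon genes called moved with the rule. It was 4 of 21 when cells were thinned to 2000 UMIs before the rule was applied, which left 79 and 118 members, and with at most 2 C1q UMIs it was 6, with 2 genes lower. Without the members low in MHC class II it was 8. The sum was also higher in the Irg1-/- library in cDC1 (2497 and 3583 CPM), mature dendritic cells (2416 and 3376 CPM) and macrophages (3051 and 4800 CPM), and less so in T, NK and B cells (2892 and 3075 CPM). Whether the members differed from those populations was not tested.

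The promoters of the list were searched for the letters GAAA, any 2 bases and GAAA again, those of the interferon-response element, on both strands. The promoter is taken as the 250 bases before and 50 bases after the start of the gene (RefSeq, GRCm38.p6). Of 20 list genes with a promoter in the table, 11 held the letters, whereas 3.44% of all 32851 promoters and 4.47% of the 6025 tested genes did. Of the 7 higher genes with a promoter, 2 held it, Isg15 and Stat2. The 30 bases around the match are shown for these 2 and for 3 that were not called, on the strand of the gene, with the match in capitals.
Isg15 (chr4:156200865-156200894, minus strand, 57 bases before the start): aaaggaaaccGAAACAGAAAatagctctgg
Stat2 (chr10:128270266-128270295, plus strand, 213 bases before the start): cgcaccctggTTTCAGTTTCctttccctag
Ifit1 (chr19:34640794-34640823, plus strand, 76 bases before the start): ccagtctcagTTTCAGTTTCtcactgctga
Rsad2 (chr12:26456553-26456582, minus strand, 111 bases before the start): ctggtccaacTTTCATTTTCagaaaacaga
Bst2 (chr8:71537577-71537606, minus strand, 115 bases before the start): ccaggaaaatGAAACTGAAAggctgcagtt
In Stat2, Ifit1 and Rsad2 the letters lie on the opposite strand. In Isg15 and Bst2 the lower-case bases just before the capitals hold the start of another, overlapping match. The called and the uncalled genes both hold the letters, but only 2 of the 7 higher genes did, against 11 of all 20. A match in this window is a description, not a binding site.

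Of 18 genes of the interferon gamma response, 5 were higher and 0 lower, with a median of 0.23 and sums of 6301 and 7314 CPM. Irf1, a main transcription factor of this response, stood at 749 and 1197 CPM (0.67, 0.52 to 0.83). The GTPases Ifi47, Iigp1 and Tgtp1 were called at 0.68, 0.72 and 1.26, and Socs1, a feedback inhibitor, at 0.92. Cxcl9, the gene of the list with the most UMIs, was close at 1300 and 1246 CPM, and Gbp2 stood at -0.11. With at most 2 C1q UMIs the count was 2 higher and 1 lower, and without the members low in MHC class II it was 3 higher. The sum was also higher in the Irg1-/- library in cDC1 (4379 and 6110 CPM), mature dendritic cells (4337 and 5646 CPM) and macrophages (3587 and 5599 CPM). In T, NK and B cells it stood at 4614 and 4497 CPM.

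**Figure D3:**
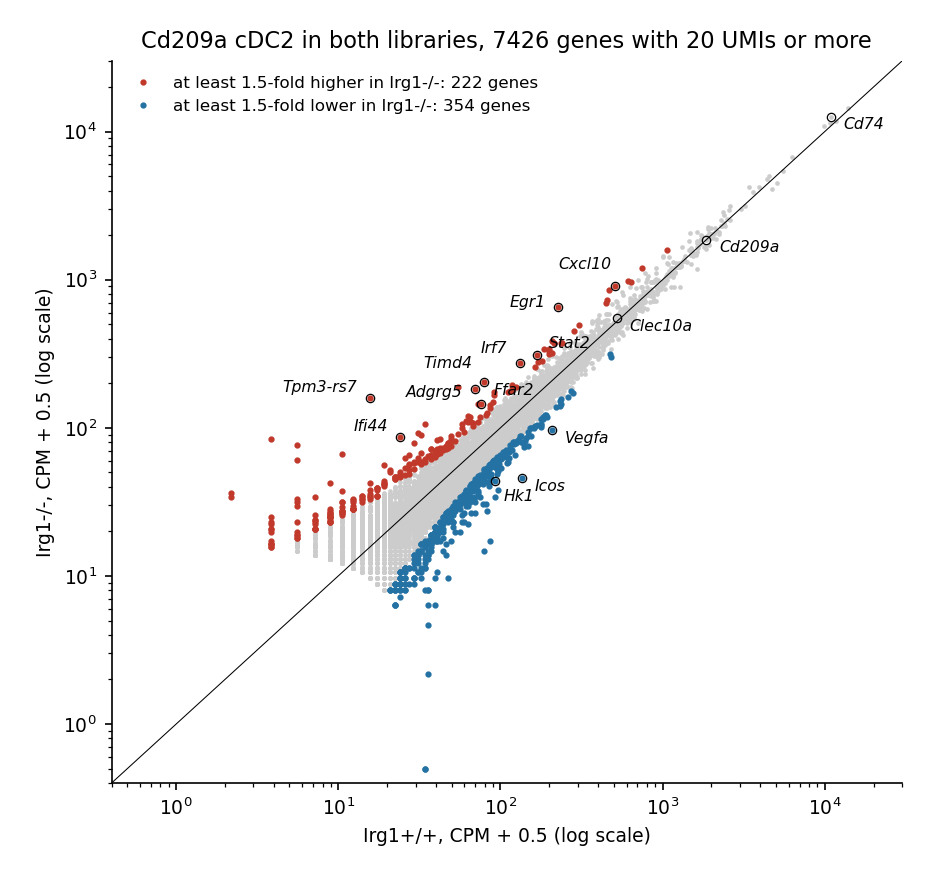
Level of each of the 7426 tested genes in the Cd209a cDC2 of the Irg1+/+ library (horizontal axis) and of the Irg1-/- library (vertical axis), as CPM with 0.5 added on log axes, with genes called higher in red and lower in blue. The 222 higher genes include Irf7 (131 and 272 CPM) and Egr1 (227 and 655 CPM), and the 354 lower ones include Vegfa (207 and 95.5 CPM).

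Glycolysis and hypoxia genes lay on the lower side. Hypoxia-inducible factors raise glucose transporters, glycolytic enzymes and the angiogenic factor Vegfa where oxygen is scarce. Of 19 tested genes 7 (against the background of 4.77%) were lower in Irg1-/- and 0 higher, with a median of -0.51 and sums of 5325 and 4406 CPM. Vegfa stood at 207 CPM in 40 Irg1+/+ and 95.5 CPM in 57 Irg1-/- members, a ratio of -1.12 (-1.50 to -0.74). Hexokinase Hk1 stood at 92.6 and 43.6 CPM (-1.09, -1.66 to -0.51), the glucose transporter Slc2a1 at 177 and 101 CPM (-0.80), and phosphoglycerate kinase Pgk1 at 130 and 83.8 CPM (-0.63). The oxidoreductase Ero1l, the lactate transporter Slc16a3 and phosphofructokinase Pfkl were called at -0.98, -0.73 and -0.69. Gapdh (-0.13) and Pkm (-0.03) were not called.

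The summed list was also lower in the Irg1-/- library in cDC1 (5138 and 4725 CPM), macrophages (8889 and 7192 CPM) and T, NK and B cells (5645 and 4732 CPM), and stood at 4373 and 4436 CPM in mature dendritic cells. Single genes differed more. Ero1l stood at -0.57 in macrophages and -0.73 in T, NK and B cells, and Hk1 at -0.46 in the latter. Vegfa stood at -1.42 in cDC1 but 0.18 in mature dendritic cells and 0.50 in T, NK and B cells, and Slc2a1 at 0.19 in cDC1. When 1 Cd209a UMI was enough for the rule, the 7 lower calls became 3 and the median of the list -0.09. Under TMM or DESeq2 scaling 5 were lower. Vegfa and Hk1 were lower under every setting tried that gave a ratio, Vegfa between -1.74 and -0.68.

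Immediate early genes respond within minutes to signals and also to tissue digestion, and 4 of them were higher in the Irg1-/- members. Egr1 stood at 227 CPM in 43 Irg1+/+ and 655 CPM in 124 Irg1-/- members, a ratio of 1.52 (1.26 to 1.80) that kept between 1.45 and 2.19 under the settings tried. Btg2, an antiproliferative factor, stood at 609 and 973 CPM (0.67), Fos at 1059 and 1590 CPM (0.59), and Atf3 was called at 0.62. In the same list of 20 dissociation stress genes the heat shock genes Hspb1 (21 and 5 UMIs), Hsph1 and Hspa1b were lower, at -2.97, -0.96 and -0.59. The counts of the list moved with the rule. With at most 2 C1q UMIs 12 were higher and 0 lower, and with at least 3 Cd209a UMIs, with thinned cells and without the members low in MHC class II 8 were higher. The list summed to 11271 and 14938 CPM in members, and was also higher in cDC1 (10321 and 13340.3 CPM), mature dendritic cells (8813 and 10839 CPM), macrophages (12732 and 15879 CPM) and T, NK and B cells (10037 and 11922 CPM). The part of digestion in the calls was not tested.

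Antigen presentation and costimulation showed few calls. Of 12 MHC class II pathway genes 0 were higher and 1 lower, the lysosomal protease Lgmn (-0.68), with a median of 0.10. H2-Aa stood at 9904 and 10973 CPM, Cd74 at 10971 and 12561 CPM, and Ciita, the class II transactivator, at 239 and 303 CPM. None of 16 MHC class I genes (median 0.06) or 13 costimulatory and checkpoint ligands (median 0.08) was called. Cd83 stood at 763 and 824 CPM, Cd86 at 306 and 287 CPM, and Cd274 (PD-L1) at 175 and 173 CPM.

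Of 15 chemokines 1 was higher and 4 lower. Cxcl10, a ligand of Cxcr3, stood at 512 CPM in 37 and 906 CPM in 94 members (0.82, 0.64 to 1.01). Ccl12, Ccl17, Ccl7 and Ccl22, ligands of Ccr2 or Ccr4 among other receptors, were lower, Ccl7 at 177 and 105 CPM (-0.76) and Ccl22 at 121 and 79.6 CPM (-0.61). Of 9 cytokines only Tnf was called, higher at 90.9 and 165 CPM (0.85, 0.42 to 1.32), and Il1b stood at 1732 and 2015 CPM (0.22). Ccr2, the receptor that draws monocytes and cDC2 precursors into tissue, stood at 912 and 1193 CPM (0.39, 0.24 to 0.53) and was not called.

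**Figure D4:**
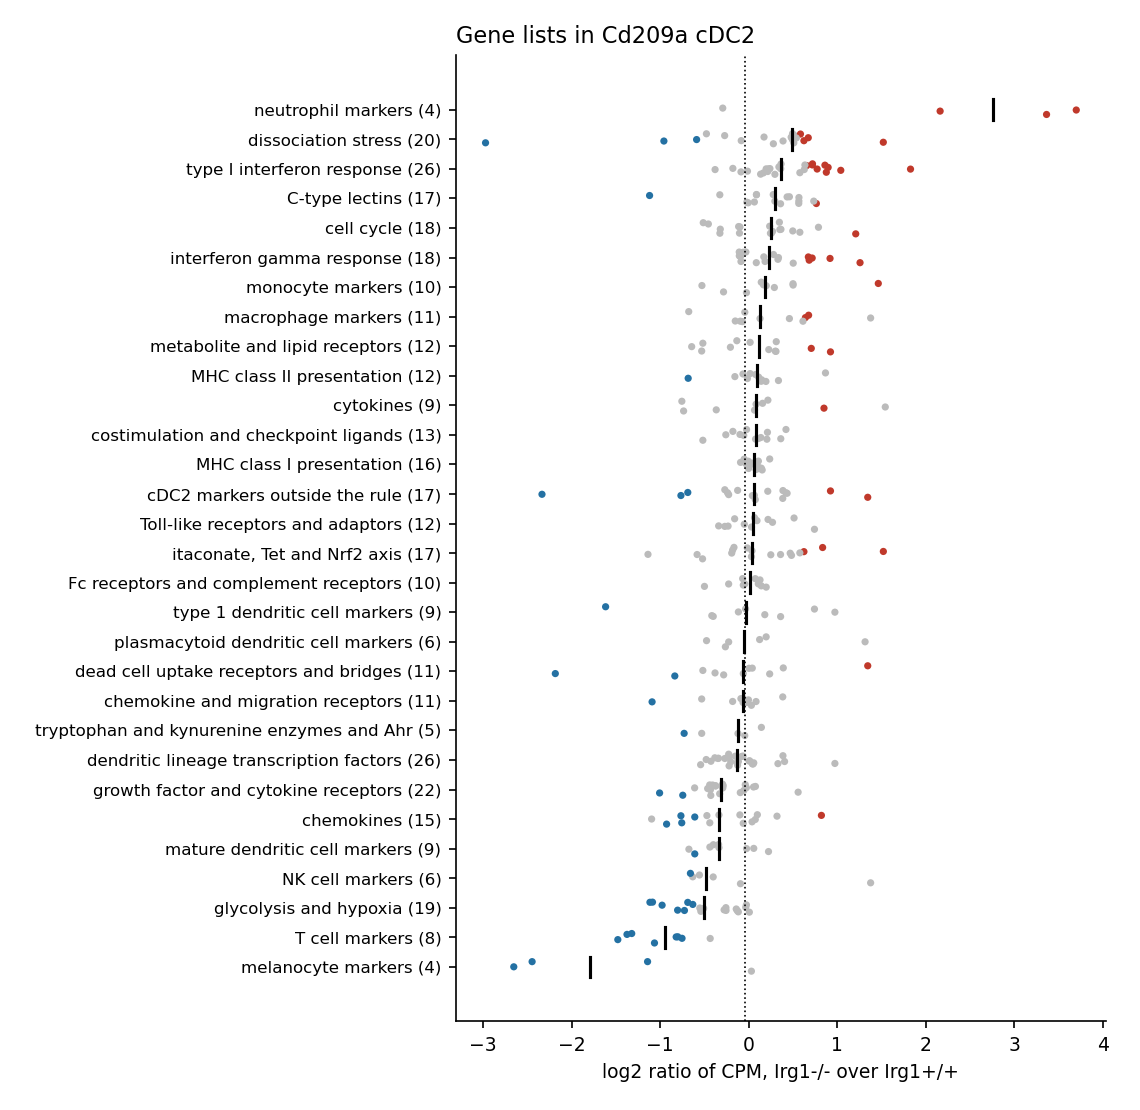
Log2 ratio of Irg1-/- over Irg1+/+ CPM (horizontal axis) of each tested gene in the Cd209a cDC2, by gene list with the number of tested genes in parentheses. Red points were called higher, blue lower and grey neither, black bars are the medians of the lists, and the dotted line is the median of all genes. The type I interferon list had 9 of 26 genes higher and the glycolysis and hypoxia list 7 of 19 lower, against 2.99% and 4.77% of all genes.

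Lineage and sensing genes were mostly uncalled. Of 26 dendritic lineage transcription factors and 12 Toll-like receptors and adaptors 0 were called, with medians of -0.13 and 0.05. Of 22 growth factor and cytokine receptors 2 were lower, Il7r (-0.74) and Tgfbr1 (-1.01), and of 10 Fc and complement receptors none was called. Of 17 C-type lectins Clec4a1 was higher (0.76), and Clec9a, a rule gene, was lower, whereas under TMM or DESeq2 scaling 4 were higher, and under all settings tried between 0 and 4. Among 12 metabolite and lipid receptors Ffar2 and Hcar2, a nicotinate receptor (47.1 and 77.9 CPM, 0.71), were higher. Of 5 kynurenine pathway genes Ahr, the aryl hydrocarbon receptor that kynurenine binds, was lower at 237 and 143 CPM (-0.73, -1.06 to -0.40), and it was lower under every setting tried that gave a ratio. Of 17 genes of the itaconate and Nrf2 list 3 were higher, Acod1, Idh1 (0.84) and Atf3. Of 11 genes for uptake of dead cells Timd4 was higher and the scavenger receptors Stab1 and Cd36 lower. Of 11 migration receptors S1pr4 was lower, and of 18 cell cycle genes Birc5 was higher (1.21). With thinned cells Clec9a, Cd36 and S1pr4 turned higher and Birc5 lower, and Birc5 was also lower with 1 Cd209a UMI. Cells with at least 2 UMIs of 6 cycling genes were 18.8% and 17.7% of members.

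Markers of other cells were followed in the same members. T cell markers were lower in 7 of 8, from 582 to 312 CPM together, with Trbc2 at 148 and 88.0 CPM and Trac at 141 and 81.3 CPM. They were also lower in the T, NK and B cells themselves (5247 and 3643 CPM). Melanocyte markers were lower in 3 of 4, from 222 to 72.9 CPM together. Dct stood at 79.1 and 14.3 CPM, Tyrp1 at 38.7 and 5.87 CPM and Gpnmb at 74.1 and 33.5 CPM, and their sum was lower in every population compared, although the sort was for Cd45+ cells. Neutrophil markers were higher in 3 of 4, from 47.1 to 195 CPM, but of the 72 S100a8 UMIs in Irg1-/- members 31 were in 1 cell, and of the 91 S100a9 UMIs 44 were.

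Macrophage markers had 2 of 11 genes higher, Apoe (0.64) and Adgre1 (0.68), and summed to 1879 and 2030 CPM. Of 10 monocyte markers Hp was higher, and the sum was 5333 and 6068 CPM, with Ly6c2 at 1012 and 1434 CPM (0.50, not called). Of 9 markers of cDC1 Itgae was lower, of 9 of mature dendritic cells Ccl22 was lower, and of 6 of plasmacytoid cells none was called, with sums of 870 and 842 CPM. Of 6 NK cell markers Gzmb was lower, the sum standing at 505 and 394 CPM, but with at least 3 Cd209a UMIs 2 were higher and 0 lower, without the members low in MHC class II 2 and 0, and with at most 2 C1q UMIs 0 and 4. Of the B cell markers only Ighm had 20 UMIs, and Cd79a and Ebf1 were at 0. The part of these cells in the calls above was not tested.

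The genes at either end of the order included several immune genes of other lineages. Among 3310 genes with at least 100 UMIs in members that were also seen in 10% or more of the members of either library, the 12 highest ratios were those of Gm47015 (4.32, 2.75 to 7.70), Tpm3-rs7 (3.31), Ifi44, Slfn4 (1.79), Ifi206 (1.62), Relt (1.56), Egr1, Igha (1.44), Adgrg5 (1.38), Timd4, Irf7 and Pttg1 (1.00). Gm47015 had 2 and 100 UMIs and Tpm3-rs7 9 and 189 UMIs, and both stood at 2.74 or more in each of the 4 other populations. Igha, Adgrg5, Slfn4, Timd4 and Irf7 were also higher in each of these populations, with intervals above 0. Igha stood at 1.79 or more there and Adgrg5 between 0.59 and 2.42. Slfn4, an interferon-regulated gene of myeloid cells, stood at 53.9 and 189 CPM, and Adgrg5, an adhesion G protein-coupled receptor, at 69.0 CPM in 28 and 182 CPM in 105 members. Igha encodes the heavy chain of IgA, a product of plasma cells.

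The 12 lowest were Icos (-1.57), Ctla4 (-1.34), Vegfa, Hk1, Ero1l, Hsph1, Gimap3 (-0.96), Trappc6b (-0.95), Btaf1 (-0.94), Spn (-0.94), Cd63 (-0.94) and Arid2 (-0.93). Icos and Ctla4, costimulatory and inhibitory receptors of T cells, stood at 135 and 45.3 CPM and at 96.0 and 37.7 CPM, and 22 of 80 Icos UMIs in Irg1+/+ members lay in 1 cell. The Icos ratio was -1.30 in cDC1, -1.11 in mature dendritic cells, -0.53 in T, NK and B cells and -0.03 in macrophages. For Ctla4 it was -0.47, -0.60, -0.87 and -0.83 in the same order. Of the called genes that were named or listed, 14 were called under all 12 settings that gave a ratio. Those higher were Tpm3-rs7, Ifi206, Egr1, Adgrg5, Irf7, Stat2, Btg2 and Oasl2, and those lower were Plet1, Vegfa, Hk1, Btaf1, Trbc2 and Ahr.

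**Figure D5:**
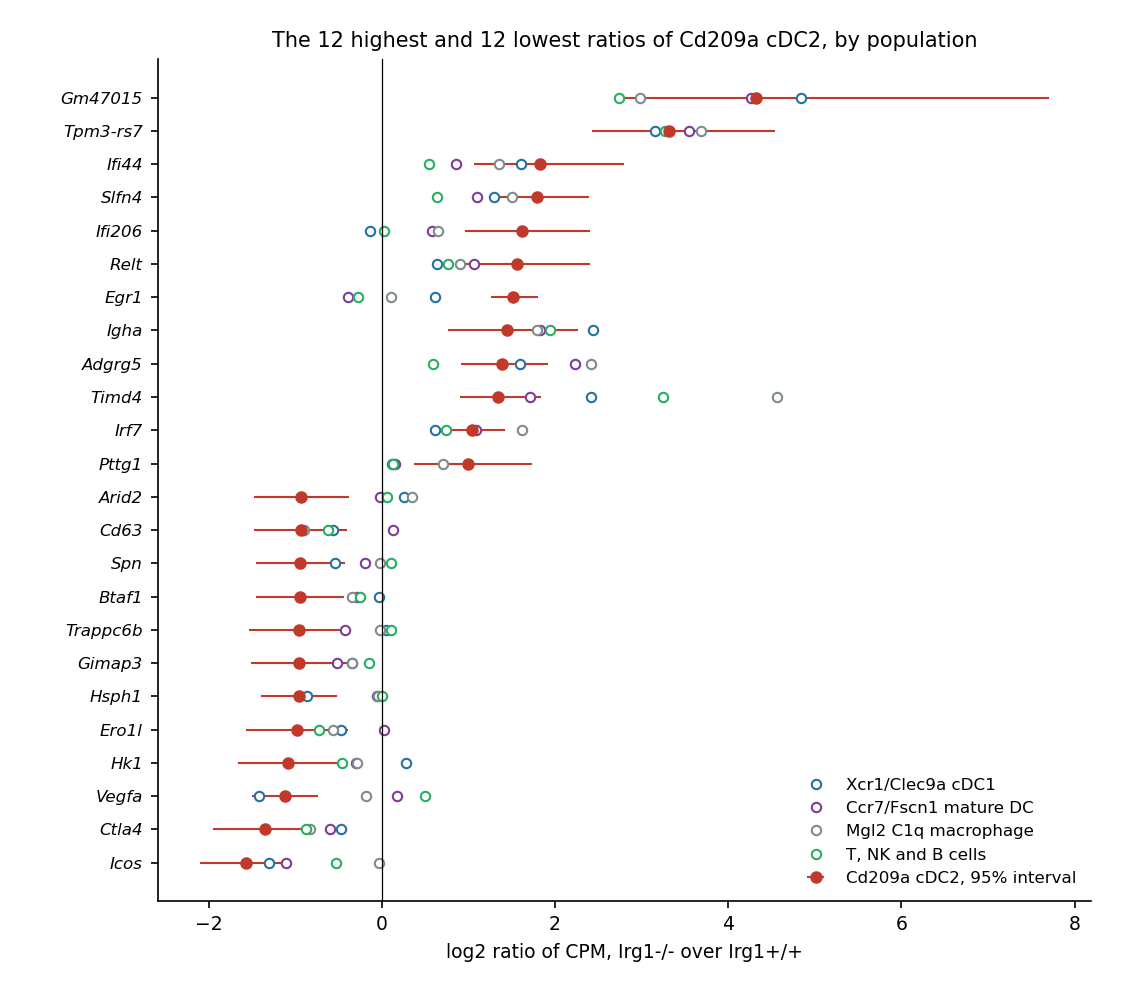
Log2 ratio of Irg1-/- over Irg1+/+ for the 12 highest and 12 lowest genes of the Cd209a cDC2, with exact 95% intervals, beside the ratio of the same gene in cDC1, mature dendritic cells, Mgl2 macrophages and T, NK and B cells. Gm47015 and Tpm3-rs7 lay high in all 5 populations, and Igha, Adgrg5, Slfn4, Timd4 and Irf7 were also higher in all 5. Egr1 stood at 1.52 in the members and -0.39 in mature dendritic cells.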

How the data were processed

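The authors deposited, for each library, a matrix of UMI counts per gene and cell. Per the labels and the study's methods, reads were converted with CASAVA 1.8, trimmed with fastp, mapped with STAR to GRCm38 and counted with UMI-tools, and Seurat was used for the authors' analysis. No annotation of cell types by the authors was used here. Cells with under 10% of UMIs from mt- genes were kept, and mt- genes were left out of all sums (31240 genes remained, of which 31094 were found in GENCODE M21). Depth is given with the samples. No doublet caller was run. Doublets were treated only through alternatives that leave out members with lymphocyte UMIs or very high totals.

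UMIs were summed over members per library and scaled to CPM, with exact Poisson, Clopper-Pearson or conditional binomial intervals at 95% in Python 3.11.15 (with scipy 1.17.1 for the intervals, and numpy 2.4.6 and pandas 2.3.3 for the sums). Only the interval of the ratio of shares was not exact, and came from a normal approximation on the log scale. A pseudocount of 0.5 UMIs and a minimum of 20 UMIs (100 for the 4-fold comparison between populations) were used, and thinning drew 2000 UMIs per cell. Calls are a rule of size, not a test, because cells are not replicates. Scaling factors came from edgeR 4.0.16 and DESeq2 1.42.0 in R 4.3.3, without a model. The code that makes the calls and intervals was run on simulated counts with known folds. Aldoa, which has more than 1 identifier, was left out of its list, and listed genes absent from the files (Ifi30, Cxcl11, Clec7a, Mx1, Mx2) were not analysed here.

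The members and lists were chosen with earlier results of these data known. Named genes are the rule genes and markers, the 12 highest and 12 lowest ratios, the 15 largest folds over other populations, listed genes with at least 20 UMIs, the 10 genes most correlated with Cd209a, and Acod1. Genes of the MHC class II-low members were chosen after their values were seen. The ratio between the libraries was recomputed with other rule limits, without doubtful members, with thinned cells, by other scalings and by the mean of each cell's CPM.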

Additional observations from a re-analysis of the deposited data

Results flagged for a closer look

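Several ratios had opposite signs in the Cd209a cDC2 and in another population, with intervals that did not include 0 in either. The difference between populations was not tested, since there was 1 library per genotype. Egr1 stood at 1.52 in the members but at -0.39 in mature dendritic cells and -0.27 in T, NK and B cells. Vegfa stood at -1.12 in the members and 0.50 in T, NK and B cells, and Cd63, a tetraspanin of endosomes, at -0.94 in the members and 0.13 in mature dendritic cells. Il1r2 stood at -0.43 in the members and 1.35 in macrophages. Ifitm1 stood at -0.47 in the members but higher in cDC1 (0.40), mature dendritic cells (0.66), macrophages (1.62) and T, NK and B cells (0.56). Acod1 stood at 1.52 in the members, on 6 and 37 UMIs, and at -0.69 in T, NK and B cells.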

How the results depend on the processing

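The ratio of the shares of members stayed between 1.59 (cells thinned to 2000 UMIs) and 2.21 under all alternatives. The shares themselves moved. They were 2.24% and 4.28% with 1 Cd209a UMI, 0.859% and 1.69% with at most 2 C1q UMIs, 1.26% in Irg1+/+ with at most 1 lymphocyte UMI, and in Irg1-/- 2.62% with thinned cells and 2.64% without members low in MHC class II. Cells thinned before the rule was applied (79 and 118 members) gave 112 higher and 148 lower genes, of which only 24 and 30 were among the 222 and 354 called with all UMIs, and with at most 2 C1q UMIs 62 and 113 were. With at most 1 lymphocyte UMI the Irg1-/- share was 2.78%, and 219 genes were higher and 298 lower. Of these, 150 and 203 were among those called with all members, and the type I interferon list had 8 higher and 1 lower. A minimum of 100 UMIs gave 91 higher and 113 lower genes. Genes past the fold over the other populations numbered 9 with a minimum of 20 UMIs and 22 with a fold of 2. With 1 Cd209a UMI, Clec10a and Ank no longer passed, with thinned cells Cd209d, Clec10a and Ank did not (Cd7, Ifitm1, Ifitm6 and Il1r2 did), and without members with Siglech Ank did not. Of 1032 pairs of a named or listed called gene and a setting, 837 kept the direction and the call, 178 kept the direction only, and 17 reversed. With thinned cells 27 of the 86 genes kept the call and 49 the direction only, and with at most 2 C1q UMIs 53 and 30. Those reversed were Birc5 (-0.20) with 1 Cd209a UMI; Ccl17 (0.66), Isg20 (-0.085) and Hspa1b (0.23) with at most 2 C1q UMIs; Cd2 (0.57), Cd3d (0.54) and Gzmb (0.33) with at most 1 lymphocyte UMI; and with thinned cells Clec9a (0.16), Cd2 (0.11), Ccl17 (1.01), Adgre1 (-0.43), S100a8 (-0.19), Cd3g (0.80), Cd3e (0.46), S1pr4 (2.88), Cd36 (0.16) and Birc5 (-0.92). The lymphocyte limit removes cells by Cd3 UMIs by construction, and thinning leaves fewer cells and UMIs. For the others the cause was not tested. The members low in MHC class II and those with Siglech were left out as alternatives chosen after seeing the data. No paired analysis was possible because each genotype had 1 library, and no replicate could be left out.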
